A study of Rattus norvegicus with 12 samples.

Results

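The genes described here make up the gate through which pyruvate enters mitochondrial metabolism: the pyruvate dehydrogenase complex, the phosphatase and kinases that switch it on and off, and the mitochondrial pyruvate carrier. The 10 genes are Pdha1, Pdhb, Dlat, Pdp2, Pdk1, Pdk2, Pdk3, Pdk4, Mpc1 and Mpc2. Probe sets were taken when the annotation of the array gave exactly one of these symbols. That gave 15 probe sets for 9 of the 10 genes, out of 31099 probe sets and 14218 named genes on the array. Dlat, the acetyltransferase core of the complex, was matched to no probe set by symbol and is not analysed here. Expression was measured on 12 Affymetrix rat arrays in white fat of the epididymal pad from rats 24 weeks old. The CR group was 4 wild Wistar rats held to 70% of the energy intake of freely fed rats from 6 weeks of age. The Tg group was 4 transgenic dwarf rats, heterozygous for an antisense transgene against growth hormone and fed ad libitum. The AL group was 4 wild Wistar rats fed ad libitum. Rats of all 3 groups got food shortly before the dark phase and were killed the next morning after lights-on. The labels give Jcl:Wistar as the strain of every rat and call the arrays of a group biological replicates, and the number of arrays limits the precision of every value below.

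The pyruvate dehydrogenase complex turns pyruvate, the end product of glycolysis, into acetyl-CoA inside the mitochondrion. Pyruvate reaches it through a carrier in the inner membrane formed by Mpc1 and Mpc2. Pyruvate dehydrogenase kinases phosphorylate the alpha subunit and switch the complex off, and pyruvate dehydrogenase phosphatases remove the phosphate and switch it on again. In fat cells much of the acetyl-CoA made this way leaves the mitochondrion as citrate and is used for fatty acid synthesis.

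Levels are log2 of the deposited intensity of each probe set, so a difference of 1 is a doubling of the signal. Levels of different probe sets are not compared with each other, because probes differ in brightness. All 15 probe sets passed the filter on dim signals and were among the 23281 tested. A probe set is called changed when limma's adjusted p, over all 23281, is under 0.05. Adipocyte markers averaged 13.44 to 13.80 on the CR arrays, 13.13 to 13.53 on the Tg arrays and 13.30 to 13.61 on the AL arrays. Several arrays also carried transcripts of neighbouring tissue. Spermatid markers were high on CR1, Tg2, AL1 and AL2 (10.54 to 12.64, against 6.62 to 8.05 on the other arrays). Markers of duct epithelium were high on CR2, CR4, Tg2, Tg4 and AL3 (9.99 to 10.62, against 6.97 to 8.48). Caput epididymis markers reached 12.28 on CR4 and pancreas markers reached 13.18 on Tg1. CR3 had the highest deposited background value, at 58.5 against 34.5 to 44.1 on the other arrays. In bulk tissue fewer cells of a type and less RNA per cell cannot be told apart. Each group has its own code in the sample descriptions, the same for its 4 arrays, so if that code marks a batch, batch and group cannot be told apart.

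In fat of CR rats the complex subunits Pdha1 and Pdhb were higher than in AL rats. So were the phosphatase Pdp2, the kinase Pdk1 and the carrier subunit Mpc1, while the kinase Pdk4 was lower. Of the 15 probe sets, 8 were called, 7 higher and 1 lower in CR, where 1.45% of all tested probe sets were called. By direction the background was 0.636% called higher and 0.816% called lower. When 1 array was left out, the count among the 15 was 1 without CR1 or AL1, 2 without CR2, AL3 or AL4, 3 without AL2, 4 without Tg1, Tg2 or Tg3, 5 without CR3 or Tg4 and 9 without CR4. Over all tested probe sets it was 338 with every array and 44 (without AL4) to 283 (without CR4) with 1 left out. The median difference was 0.69 over the 15 probe sets and -8e-04 over all tested probe sets. The CR and AL arrays did not overlap for 10 of the 15, with 9 above and 1 below, where 9.91% of all tested probe sets had groups that did not overlap (4.3% above and 5.61% below). The 15 include several probe sets for the same gene, so they are not independent counts.

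**Figure D1:**
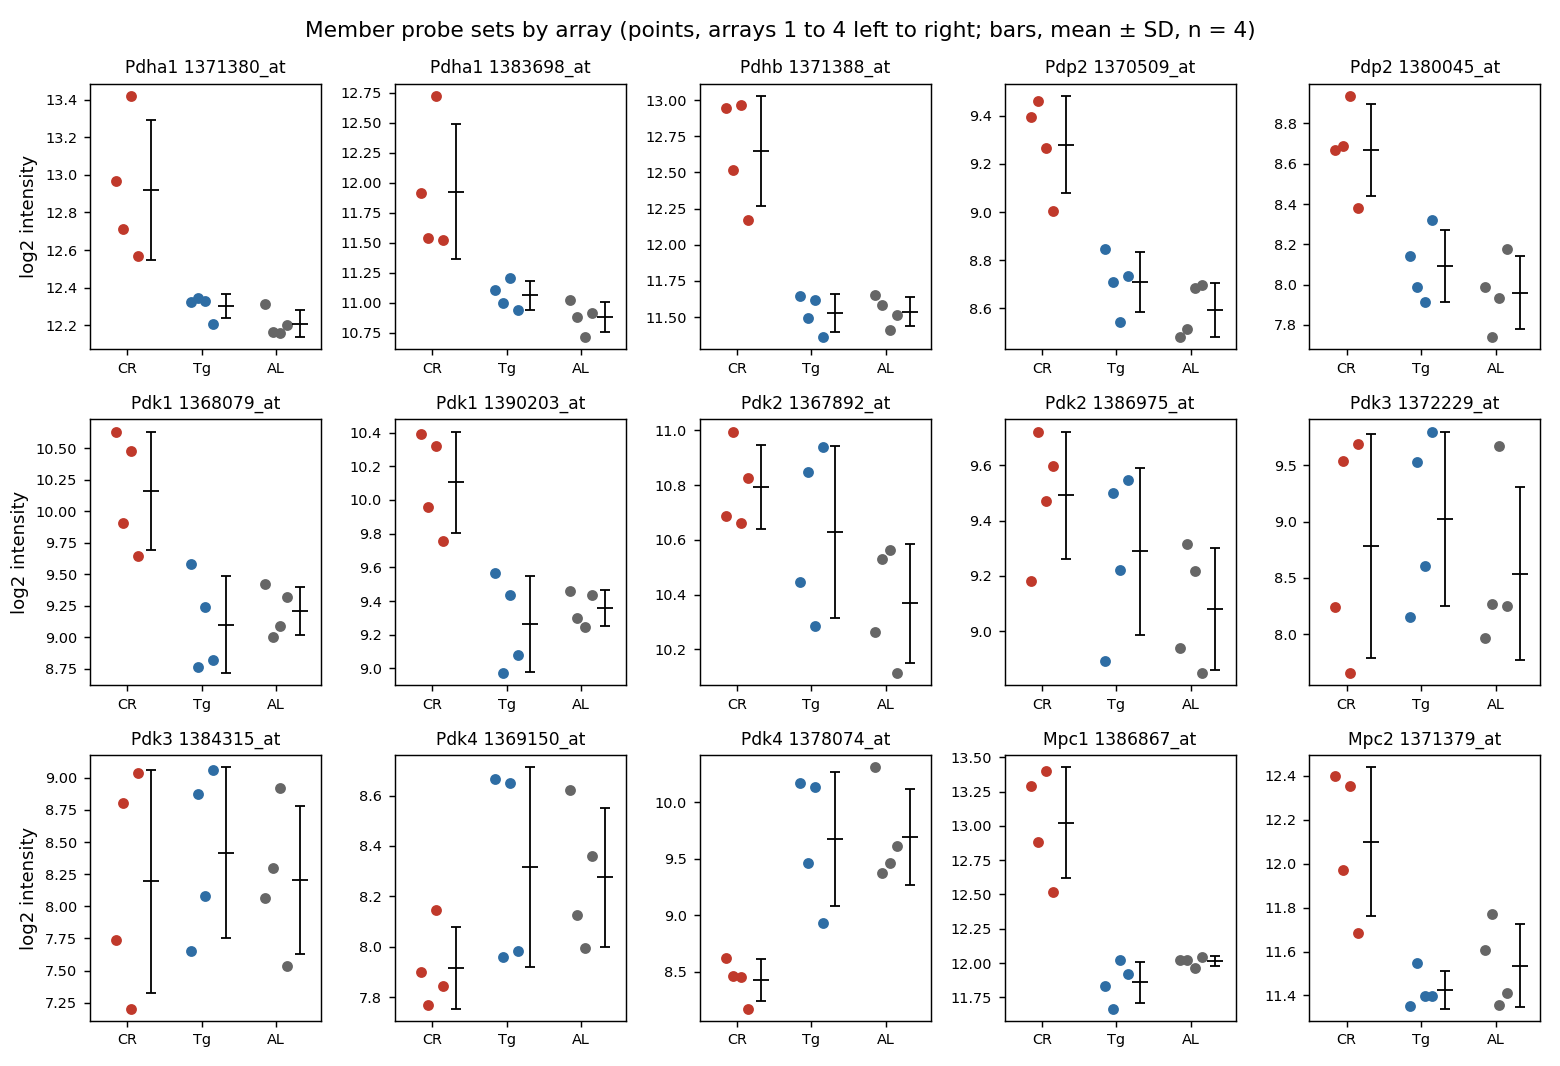
Log2 signal of each of the 15 probe sets (1 panel each) on each array, with CR, Tg and AL from left to right; points are arrays and bars are group means with the SD of 4 arrays. The CR points of Pdhb (12.17 to 12.97) lie above every Tg and AL point (11.36 to 11.65), and those of Pdk4 1378074_at (8.17 to 8.62) lie below every Tg and AL point (8.93 to 10.31).

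Pdhb encodes the beta subunit of the pyruvate-decarboxylating component, which opens the reaction of the complex. Its probe set 1371388_at read 12.94, 12.52, 12.97 and 12.17 on the CR arrays, 11.64, 11.49, 11.62 and 11.36 on the Tg arrays, and 11.65, 11.58, 11.41 and 11.51 on the AL arrays. Every CR array was above every array of the other groups, and CR4 was the lowest of the 4. The means were 12.65 ± 0.38 in CR, 11.53 ± 0.13 in Tg and 11.54 ± 0.10 in AL (SD, n = 4 each). CR exceeded AL by 1.11 (SE 0.16), a 2.16-fold difference, with an adjusted p of 0.0116. The call held when any one of the 12 arrays was left out, with adjusted p up to 0.0493.

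Pdha1 encodes the alpha subunit, which carries the sites that the kinases phosphorylate. Probe set 1371380_at read 12.97, 12.71, 13.42 and 12.57 on the CR arrays, 12.33, 12.34, 12.33 and 12.21 on the Tg arrays, and 12.31, 12.16, 12.16 and 12.20 on the AL arrays. Probe set 1383698_at read 11.91, 11.54, 12.73 and 11.53 on the CR arrays, 11.11, 10.997, 11.20 and 10.94 on the Tg arrays, and 11.02, 10.88, 10.71 and 10.91 on the AL arrays. On both probe sets all CR arrays were above all others, CR3 was the highest and CR4 the lowest. CR exceeded AL by 0.71 (SE 0.15) and by 1.05 (SE 0.22), with an adjusted p of 0.0438 for each. These calls are close to the threshold. They held without CR3 (adjusted p 0.0409 and 0.0241) and without CR4 (0.02 and 0.0325), and were lost without any one of the other 10 arrays, with adjusted p from 0.0579 to 0.128.

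The promoters of Pdhb, Pdha1, Mpc1 and Pdk4 are shown. These genes were among those called between CR and AL, the first 3 higher in CR and Pdk4 lower. Pdk1 was called too, and its promoter was searched but is not shown. Each runs from 250 bases before the annotated start to 50 after it, 5′ to 3′ on the gene's own strand, as RefSeq gives it for build GRCr8. Capitals mark, on either strand, CCAAT (core letters of the NF-Y site), GGGCGG (Sp family factors), CACGTG (the E-box of basic helix-loop-helix factors such as USF) and GTAAACA (forkhead factors).
Pdhb, chr15:19182539-19182838, plus strand: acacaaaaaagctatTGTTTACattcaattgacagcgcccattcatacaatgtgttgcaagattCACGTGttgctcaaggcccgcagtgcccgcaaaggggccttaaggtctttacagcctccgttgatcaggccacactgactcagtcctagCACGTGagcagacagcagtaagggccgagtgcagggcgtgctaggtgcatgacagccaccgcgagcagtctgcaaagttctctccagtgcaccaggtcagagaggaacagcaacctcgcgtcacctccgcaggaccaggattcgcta
Pdha1, chrX:38508908-38509207, plus strand: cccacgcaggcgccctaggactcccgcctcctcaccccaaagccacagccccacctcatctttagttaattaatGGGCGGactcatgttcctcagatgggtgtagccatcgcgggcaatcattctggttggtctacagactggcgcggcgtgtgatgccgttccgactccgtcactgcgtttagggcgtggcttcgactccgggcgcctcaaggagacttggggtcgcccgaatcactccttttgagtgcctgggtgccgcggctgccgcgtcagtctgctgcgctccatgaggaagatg
Mpc1, chr1:54996909-54997208, minus strand: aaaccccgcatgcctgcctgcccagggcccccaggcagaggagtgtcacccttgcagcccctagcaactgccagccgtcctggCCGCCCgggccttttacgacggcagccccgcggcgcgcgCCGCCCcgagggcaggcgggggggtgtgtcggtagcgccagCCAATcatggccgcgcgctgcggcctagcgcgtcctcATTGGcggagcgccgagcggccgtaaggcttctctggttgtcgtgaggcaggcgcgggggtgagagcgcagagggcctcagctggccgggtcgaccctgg
Pdk4, chr4:34568280-34568579, minus strand: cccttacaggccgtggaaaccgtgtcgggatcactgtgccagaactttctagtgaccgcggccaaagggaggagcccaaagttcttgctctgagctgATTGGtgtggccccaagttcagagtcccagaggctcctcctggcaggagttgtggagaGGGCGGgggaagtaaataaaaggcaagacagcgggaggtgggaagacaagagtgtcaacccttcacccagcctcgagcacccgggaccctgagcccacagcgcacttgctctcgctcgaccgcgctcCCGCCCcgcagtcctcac
The Pdhb window held CACGTG at 186 and 97 bases before the start and GTAAACA, as TGTTTAC, at 235. Of the 33469 promoters in the table, 6.42% held CACGTG and 3.78% held GTAAACA. Among the 9 genes with an entry, CACGTG was also found in Pdk2 and GTAAACA in no other. CCAAT was present in Pdk2, Pdk3, Pdk4, Mpc1 and Mpc2 (37.5% of all promoters), and GGGCGG in Pdha1, Dlat, Pdk1, Pdk3, Pdk4, Mpc1 and Mpc2 (33.1%). Also searched on both strands were AGGTCA (16.2% of all promoters, in Pdhb and Dlat), CACCTG (18.8%, in Mpc2), GCGCA (29.2%, in Pdha1, Dlat, Pdk2, Pdk4, Mpc1 and Mpc2) and TGTTCT (20.7%, in no member). TGACGTCA (1.83%), TCACCCCAC (0.484%), TCAAGGTCA (0.433%), the full palindrome of NRF1 (0.852%) and CACGTG flanked by AT on each side (0.0329%) were in no member. AGGTCA lies within TCAAGGTCA, CACGTG within its flanked form and GCGCA within the NRF1 palindrome. The motifs were chosen with the results known, a match is a description of letters, and binding was not measured. Pdp2 has no entry in the table.

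Pdp2 encodes a phosphatase that reactivates the complex by removing phosphate from the alpha subunit. Probe set 1370509_at read 9.40, 9.46, 9.26 and 9.003 on the CR arrays, 8.85, 8.71, 8.54 and 8.73 on the Tg arrays, and 8.48, 8.51, 8.69 and 8.70 on the AL arrays. Probe set 1380045_at read 8.67, 8.69, 8.94 and 8.38 on the CR arrays, 8.14, 7.99, 7.92 and 8.32 on the Tg arrays, and 7.99, 7.74, 7.93 and 8.18 on the AL arrays. Both probe sets had every CR array above every other array, although CR4 and Tg4 were close on the second. CR exceeded AL by 0.69 (SE 0.11, adjusted p 0.0172) and by 0.71 (SE 0.13, adjusted p 0.0334). The first call was lost without CR1 (adjusted p 0.0523), CR2 (0.0548) or AL1 (0.0535), and the second without CR1, CR2, CR3 or any one of the AL arrays (0.0608 to 0.0855).

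Among the kinases, Pdk1 was higher and Pdk4 lower in CR than in AL, while Pdk2 and Pdk3 were not called. Pdk1 is a kinase whose transcription is known to be raised by hypoxia. Probe set 1390203_at read 10.39, 9.96, 10.32 and 9.75 on the CR arrays, 9.57, 8.97, 9.44 and 9.08 on the Tg arrays, and 9.46, 9.30, 9.24 and 9.44 on the AL arrays. Probe set 1368079_at read 10.63, 9.90, 10.48 and 9.64 on the CR arrays, 9.58, 8.76, 9.24 and 8.82 on the Tg arrays, and 9.42, 9.01, 9.09 and 9.32 on the AL arrays. All CR arrays lay above all other arrays on both, by a small margin between CR4 and Tg1. The first exceeded AL by 0.75 (SE 0.16, adjusted p 0.0481). The second exceeded AL by 0.96 (SE 0.23) and missed the threshold at an adjusted p of 0.0683. The call on 1390203_at was lost without any one array other than CR4, with adjusted p from 0.0505 to 0.127.

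Pdk4 is the kinase best known for its rise in fasting, when it spares pyruvate from oxidation. Its brighter probe set 1378074_at read 8.62, 8.46, 8.46 and 8.17 on the CR arrays, 10.17, 9.46, 10.13 and 8.93 on the Tg arrays, and 10.31, 9.38, 9.47 and 9.61 on the AL arrays. All CR arrays were below all others, and the spread was wider in Tg (SD 0.59) and AL (SD 0.42) than in CR (SD 0.19). CR was lower than AL by 2.4-fold, a log2 difference of -1.26 (SE 0.28, adjusted p 0.0485). This call held only without Tg4 (adjusted p 0.0343) and was lost without any one of the other 11 arrays, with adjusted p from 0.0529 to 0.132. It was also lost without CR3, CR4 and Tg1 together (-1.15, adjusted p 0.255).

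The other Pdk4 probe set, 1369150_at, read 7.90, 7.77, 8.15 and 7.85 on the CR arrays, 8.67, 7.96, 8.65 and 7.99 on the Tg arrays, and 8.62, 8.13, 7.995 and 8.36 on the AL arrays. Here CR3 overlapped the AL arrays, and the difference of -0.36 (SE 0.19, adjusted p 0.377) did not pass. The gap between the 2 Pdk4 probe sets on the same array was 0.31 to 0.72 in CR, 0.95 to 1.503 in Tg and 1.25 to 1.68 in AL. Its mean was 0.51 ± 0.22 in CR and 1.41 ± 0.21 in AL (SD, n = 4 each), a difference of -0.90 with an exact two-sided permutation p of 0.0286, the smallest that 4 against 4 arrays allow. Adjusted over the 3 pairs of groups this p was 0.0429. The comparison was added after the values had been seen. The size of the Pdk4 difference therefore depends on the probe set read.

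Pdk2, a kinase with a broad tissue range, had small positive differences that did not pass. Probe set 1367892_at read 10.69, 10.996, 10.66 and 10.83 on the CR arrays, 10.445, 10.85, 10.29 and 10.94 on the Tg arrays, and 10.26, 10.53, 10.56 and 10.11 on the AL arrays. CR and AL did not overlap, and CR exceeded AL by 0.43 (SE 0.15, adjusted p 0.197). CR and Tg overlapped, with a difference of 0.16 (SE 0.15, adjusted p 0.639). Probe set 1386975_at had overlapping groups and a difference of 0.41 (SE 0.17, adjusted p 0.238).

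Pdk3, the remaining kinase, varied more within the groups than between them. Its probe set 1372229_at read 8.24, 9.54, 7.66 and 9.69 on the CR arrays, 8.16, 9.53, 8.61 and 9.80 on the Tg arrays, and 7.96, 8.27, 9.67 and 8.26 on the AL arrays. The 5 high values, 9.53 to 9.80, were those of CR2, CR4, Tg2, Tg4 and AL3, the same arrays that were high in duct epithelium markers, and the other 7 arrays read 7.66 to 8.61. Probe set 1384315_at divided the arrays in the same way, at 8.80 to 9.06 on the 5 arrays and 7.20 to 8.30 on the 7. The division into 5 and 7 arrays was made after the marker values had been seen. CR differed from AL by 0.25 (SE 0.53, adjusted p 0.843) and by -0.01 (SE 0.45, adjusted p 0.994). With the means of the spermatid and duct epithelium markers as covariates the differences were -0.27 (SE 0.11, adjusted p 0.139) and -0.33 (SE 0.14, adjusted p 0.182). Pdk2 1367892_at showed part of this division, at 10.56 to 10.996 on the 5 arrays and 10.11 to 10.69 on the 7. Pdk4 1369150_at showed part of it in the other direction, at 7.77 to 7.995 on the 5 arrays and 7.90 to 8.67 on the 7. Within each group Pdhb was also lower on the duct-high arrays. It read 12.52 and 12.17 there in CR, 11.49 and 11.36 in Tg and 11.41 in AL. Without the 5 arrays CR exceeded AL by 1.37 (SE 0.08) for Pdhb and by 1.315 (SE 0.09) for Mpc1. Pdk4 1378074_at was at -1.23 (SE 0.24) in that fit. The part of duct tissue in these values was not tested.

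**Figure D2:**
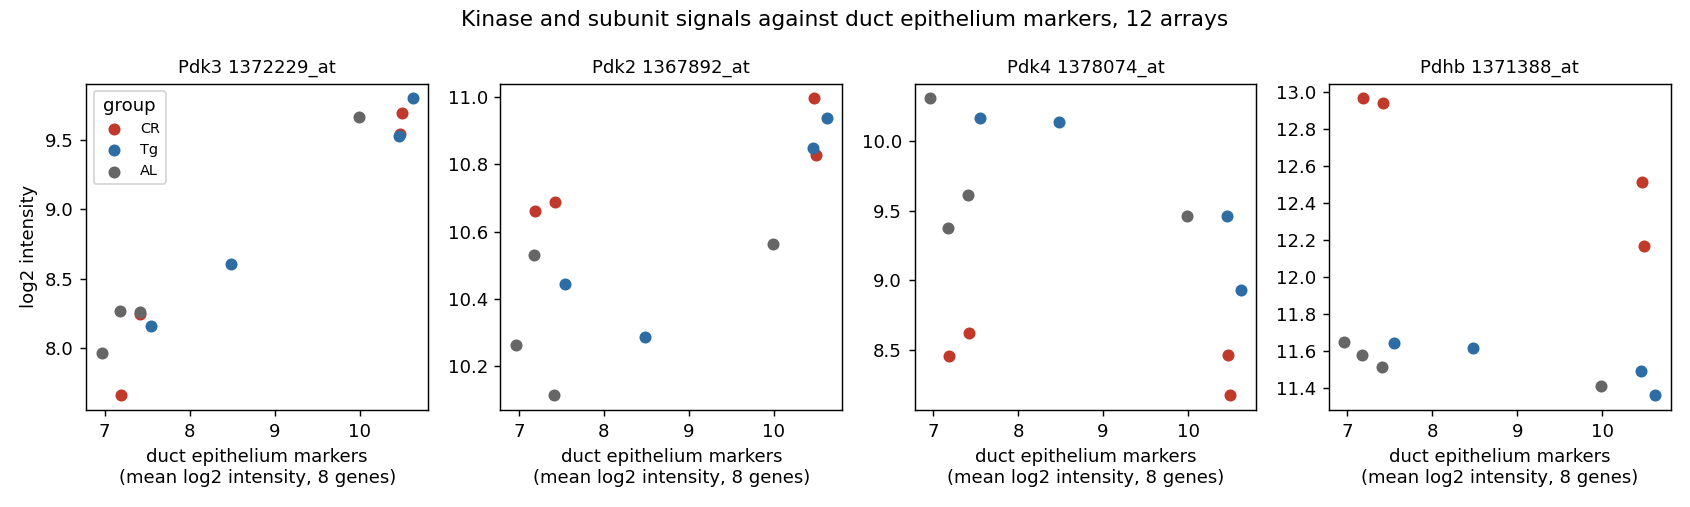
Log2 signal of the brighter probe sets of Pdk3, Pdk2 and Pdk4 and of Pdhb (vertical axes) against the mean log2 signal of 8 duct epithelium markers (horizontal axes), 1 point per array, coloured by group. Pdk3 1372229_at is at 9.53 to 9.80 on the 5 arrays to the right and 7.66 to 8.61 on the 7 to the left. Pdhb is highest on the CR arrays on both sides, and within each group it is lower to the right than to the left.

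Mpc1 is one of the paired subunits of the mitochondrial pyruvate carrier. Its probe set 1386867_at read 13.29, 12.88, 13.40 and 12.52 on the CR arrays, 11.83, 11.67, 12.02 and 11.92 on the Tg arrays, and 12.03, 12.02, 11.96 and 12.04 on the AL arrays. The CR arrays were above all others, and the AL arrays spread little around 12.01 (SD 0.035, n = 4). CR exceeded AL by 1.01 (SE 0.16), a 2.01-fold difference, with an adjusted p of 0.0189. The call was lost without CR1 (adjusted p 0.0536), AL1 (0.0535), AL3 (0.0563) or AL4 (0.067). Of 1969 probe values over the 15 probe sets, 2 exceeded the deposited saturation level, both in Mpc1.

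Mpc2, the partner subunit, read 12.40, 11.97, 12.35 and 11.68 on the CR arrays, 11.35, 11.55, 11.40 and 11.40 on the Tg arrays, and 11.61, 11.77, 11.36 and 11.41 on the AL arrays. CR4 lay between the AL arrays, so CR and AL overlapped. The difference was 0.57 (SE 0.15, adjusted p 0.0871) and did not pass the threshold. Without CR4 its adjusted p was 0.0271, and without any one of the other 11 arrays it was 0.0828 to 0.216, not past the threshold.

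Single probes were compared too. Each probe set has 11 probes, 165 in all. All 11 probes were brighter on average in CR than in AL for both Pdha1, both Pdp2, both Pdk1 and both Pdk2 probe sets and for Pdhb, Mpc1 and Mpc2. All 11 were dimmer in CR for Pdk4 1378074_at, against 8 of 11 for 1369150_at. For Pdk3, 9 and 7 of 11 were brighter in CR. Probes of a set read the same RNA of the same arrays and are not replicates.

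**Figure D3:**
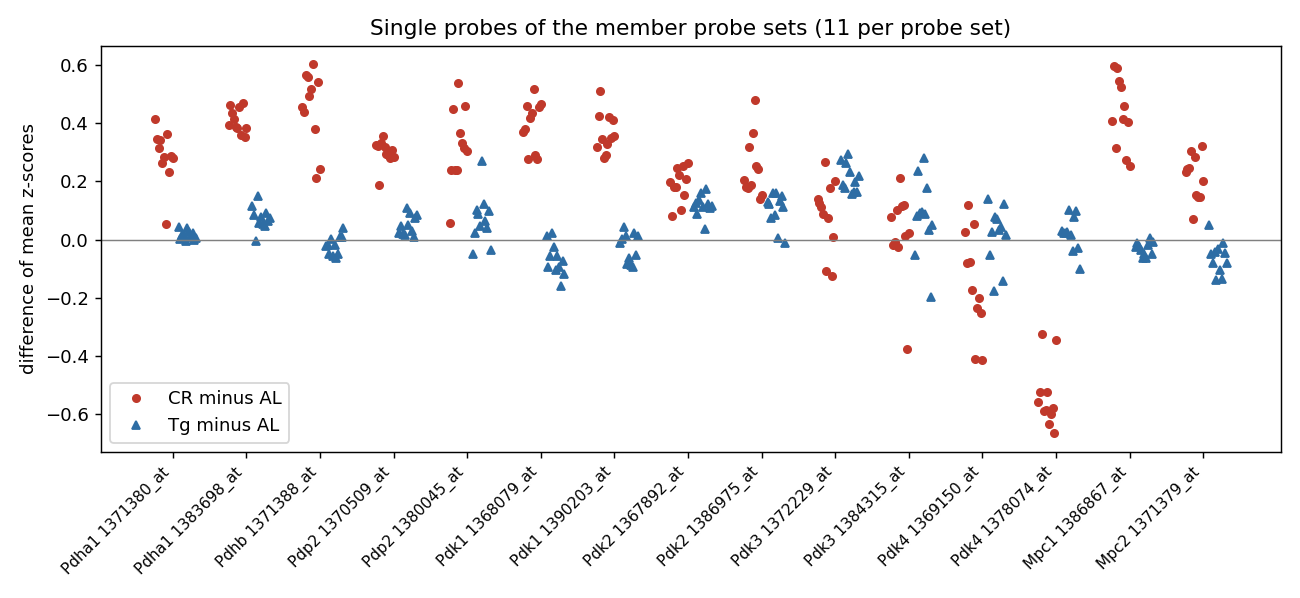
Difference of mean z-scores for every probe of each probe set, CR minus AL (circles) and Tg minus AL (triangles), with 11 probes per probe set. The circles of Pdhb lie between 0.21 and 0.60 and those of Pdk4 1378074_at between -0.67 and -0.33.

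Markers of other cell types were compared between CR and AL too. Of the duct epithelium markers 8 of 8 had a higher mean in CR and of the spermatid markers 9 of 9 a lower one, with 0 called in either list. Both lists were high on a few arrays only, and the groups overlapped. List means were 7.19 to 10.50 in CR and 6.97 to 9.99 in AL for duct epithelium. For spermatids they were 7.05 to 10.54 in CR and 6.88 to 12.64 in AL. Genes of a list rise on the same arrays, so these counts are not separate evidence of a group difference. The macrophage list was lower in CR than in AL for 8 of 8 genes. Of these 6 were called, where 0.816% of all tested probe sets were called lower. The macrophage list means were 9.67 to 9.85 on the CR arrays and 10.29 to 10.53 on the AL arrays. Of the 8 adipocyte markers 1, the glucose transporter Slc2a4, was called (higher in CR), and the list's median difference was 0.02. The share called higher over all tested probe sets was 0.636%. Of the fibroblast and matrix markers 7 of 7 were lower in CR, 0 of them called, with list means of 13.03 to 13.14 on the CR arrays and 13.16 to 13.49 on the AL arrays, which did not overlap. Of the endothelial markers 5 of 6 were lower in CR, 0 of them called, with list means of 10.19 to 10.61 on the CR arrays and 10.40 to 10.73 on the AL arrays. The part of the macrophage, matrix and endothelial differences in the results was not tested. With the spermatid and duct epithelium markers as covariates Pdhb exceeded AL by 1.25 (SE 0.10), Mpc1 by 1.10 (SE 0.14) and Pdk1 1390203_at by 0.85 (SE 0.08), and Pdk4 1378074_at was at -1.11 (SE 0.24). Without CR3, CR4 and Tg1, the arrays that carried epididymis or pancreas markers or a high background, 5 of the 15 were called (both Pdha1 probe sets, Pdhb, Pdp2 1370509_at and Mpc1). Over all tested probe sets 81 were called in that fit. Without the 4 arrays high in spermatid markers, which leaves 3 CR, 3 Tg and 2 AL arrays, limma called 0 of the 15 and 2 of all tested probe sets. Of all tested probe sets 2992 had an unadjusted p under 0.05 there. The differences without those 4 arrays were 1.09 for Pdhb, 0.93 for Mpc1 and -1.18 for Pdk4 1378074_at.

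No probe set of the 15 was called between Tg and AL, in a comparison where limma called 0 of all tested probe sets (0%) and 1385 had an unadjusted p under 0.05. The 2 groups overlapped for all 15 probe sets, where 4.39% of all tested probe sets did not overlap (1.78% higher and 2.61% lower in Tg). The differences ran from -0.15 for Mpc1 to 0.49 for Pdk3 1372229_at, with a median of 0.09 against -0.0076 over all tested probe sets, and adjusted p from 0.827 to 0.991. For Pdhb the difference was -0.01 with a 95% interval from -0.35 to 0.33, for Mpc1 -0.15 with an interval from -0.51 to 0.20, and for Pdk4 1378074_at -0.02 with an interval from -0.62 to 0.59. The interval of Pdhb does not reach the 1.11 by which CR exceeded AL. That of Pdk3 1372229_at, from -0.68 to 1.65, is too wide to bound a change of that size.

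**Figure D4:**
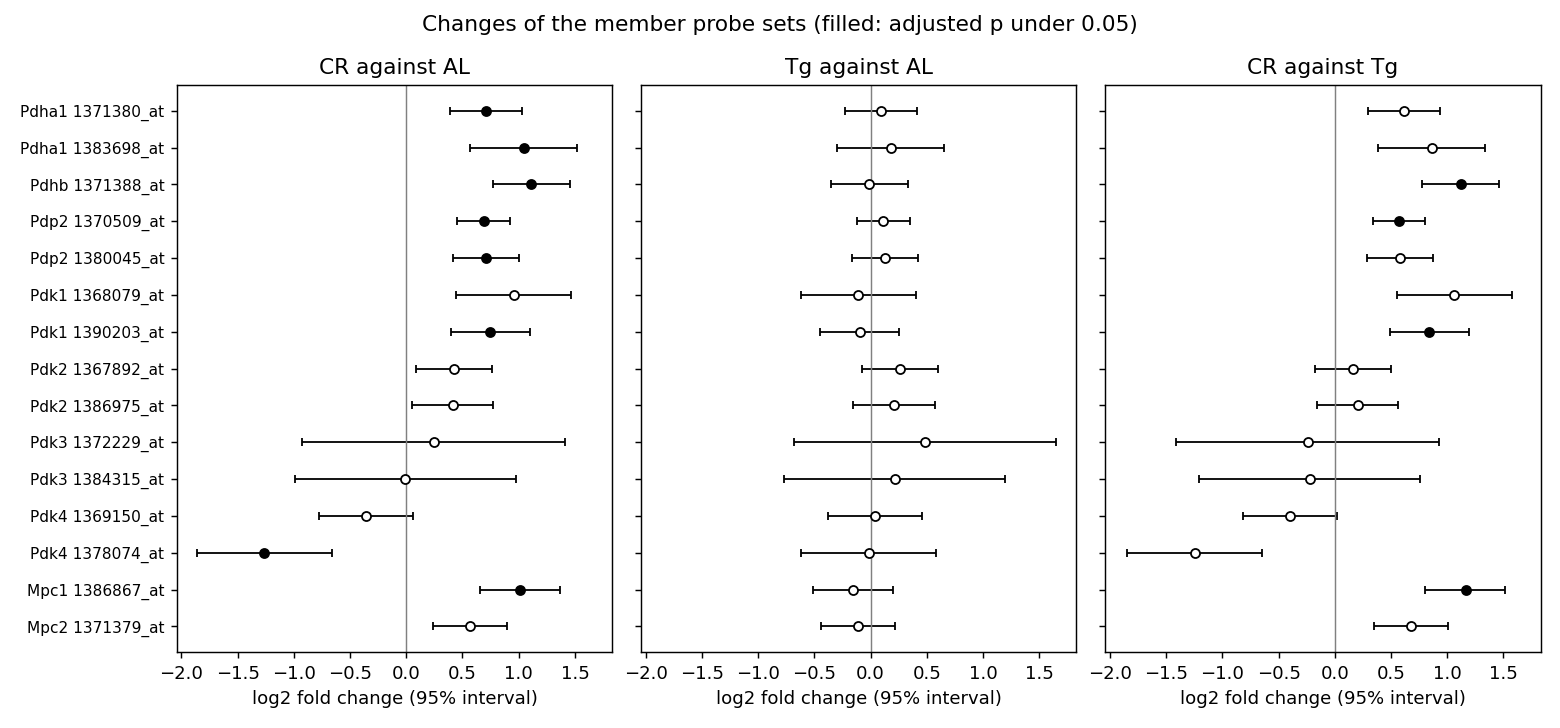
Log2 fold change of each probe set with its 95% interval for CR against AL, Tg against AL and CR against Tg (1 panel each); filled points passed an adjusted p of 0.05. For CR against AL 8 points are filled, for Tg against AL 0 and for CR against Tg 4.

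Set against Tg rats, CR rats had higher Pdhb, Mpc1, Pdp2 and Pdk1 signals. This comparison shares the CR arrays with that of CR against AL, so they are not separate evidence. Of the 15 probe sets 4 were called, all higher in CR, where 1.25% of all tested probe sets were called, 0.735% higher and 0.515% lower. When 1 array was left out, 2 of the 15 were called without CR1, CR2, CR3, Tg2, Tg3, AL1 or AL4, 3 without Tg1 or Tg4, 4 without AL2 or AL3 and 9 without CR4. CR and Tg arrays did not overlap for 10 of the 15, with 9 above and 1 below, against 11.1% of all tested probe sets (5.03% above and 6.1% below). The 4 were Pdhb, at 1.12 (SE 0.16, adjusted p 0.0106), Mpc1, at 1.16 (SE 0.16, adjusted p 0.0106), Pdp2 1370509_at, at 0.57 (SE 0.11, adjusted p 0.0313), and Pdk1 1390203_at, at 0.84 (SE 0.16, adjusted p 0.0335). The median over the 15 was 0.58, against -0.0077 over all tested probe sets. The Pdhb and Mpc1 calls held without any one of the 12 arrays, with adjusted p up to 0.0458 and 0.0469. The Pdp2 call held only without CR4, AL2 or AL3, and was lost without any other array, with adjusted p from 0.0507 to 0.098. The Pdk1 call was lost without CR1, CR2, CR3, Tg2, Tg3, Tg4, AL1 or AL4, with adjusted p from 0.0564 to 0.0983.

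Other probe sets fell just short in CR against Tg. Pdk4 1378074_at was lower in CR by -1.25 (SE 0.28, adjusted p 0.0551) and Pdk1 1368079_at higher by 1.06 (SE 0.23, adjusted p 0.0551). Mpc2 differed by 0.68 (adjusted p 0.0564), and the Pdha1 probe sets by 0.62 and 0.86 (adjusted p 0.0692 and 0.084). The deviations of arrays with the same replicate number in CR and Tg correlated at 0.32 to 0.62. With that number as a block over all 12 arrays, 116 probe sets were called against 291 without it. The AL arrays were blocked too, although their numbers did not pair with CR or Tg, so the fit is not a paired test of CR and Tg alone. In the blocked fit 5 of the 15 were called. Pdp2 1370509_at was no longer among them (adjusted p 0.0782), and Pdk1 1368079_at (0.0347) and Pdk4 1378074_at (0.0425) were.

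Around the complex, 5 of 7 tested genes of citrate, acetyl-CoA and fatty acid metabolism were called higher in CR than in AL and 0 lower. The share called higher over all tested probe sets was 0.636%. The same 5 were called in CR against Tg, where 0.735% of all tested probe sets were called higher. Fatty acid synthase Fasn differed from AL by 2.41 (SE 0.19, adjusted p 0.000418), ATP citrate lyase Acly by 2.26 (SE 0.25, adjusted p 0.00412), acetyl-CoA carboxylase Acaca by 2.25 (SE 0.19, adjusted p 0.000558) and malic enzyme Me1 by 2.09 (SE 0.35, adjusted p 0.022). The median over the 7 was 2.09. The fifth called gene was the citrate carrier Slc25a1, at 1.23 (SE 0.23, adjusted p 0.0308), and the differences of citrate synthase Cs (0.34, adjusted p 0.372) and acetyl-CoA synthetase Acss2 (0.69, adjusted p 0.111) did not pass. These last 3 genes fall outside the rule for naming genes and were named after their values had been seen. The gene lists were drawn up with earlier results of these data known.

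Genes linked to fasting or to control of the kinases moved in both directions. Of 9 fasting response genes, 2 were called lower in CR than in AL and 0 higher: Angptl4, an inhibitor of lipoprotein lipase, at -1.93 (SE 0.30, adjusted p 0.0167), and Cpt1a, which admits fatty acids to mitochondria, at -0.77 (SE 0.14, adjusted p 0.0308). In CR against Tg these were called again, and the thioredoxin-interacting protein Txnip too (-0.56, adjusted p 0.0384). Of 12 genes for regulators of Pdk transcription, 1 was called against AL, the carbohydrate response factor Mlxipl at 1.39 (SE 0.23, adjusted p 0.0199). Against Tg, Mlxipl and the sterol response factor Srebf1 (0.90, adjusted p 0.0258) were called. The median differences against AL were -0.04 for the fasting list and 0.23 for the regulators. Over all tested probe sets 0.816% were called lower and 0.636% higher in CR against AL. In CR against Tg the shares were 0.515% lower and 0.735% higher.

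The remaining parts of the complex and its neighbours gave few calls. None of the 4 other complex genes tested was called in CR against AL; the smallest p were those of Pdhx, the binding protein of the complex, at 0.62 (adjusted p 0.123), and Pdp1, another phosphatase of the complex, at -0.32 (adjusted p 0.106). Nor was any of 4 cofactor genes, where Glrx5 stood at 0.27 (adjusted p 0.142) and Lipt2 at 0.31 (adjusted p 0.21). Of 9 genes of pyruvate and lactate handling, 0 were called against AL. Pyruvate carboxylase Pc stood at 1.17 (adjusted p 0.101) and the alanine aminotransferase Gpt at 0.73 (adjusted p 0.104). Gpt was called in CR against Tg (1.03, adjusted p 0.0376), where 0.735% of all tested probe sets were called higher. Of 7 genes of the sister dehydrogenase complexes for 2-oxoglutarate and branched-chain acids, 0 were called, with a median of 0.09. Bckdk stood at 0.21 (adjusted p 0.218) and Ogdh at -0.21 (adjusted p 0.289). In Tg against AL limma called 0 genes on any of the 7 lists.

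**Figure D5:**
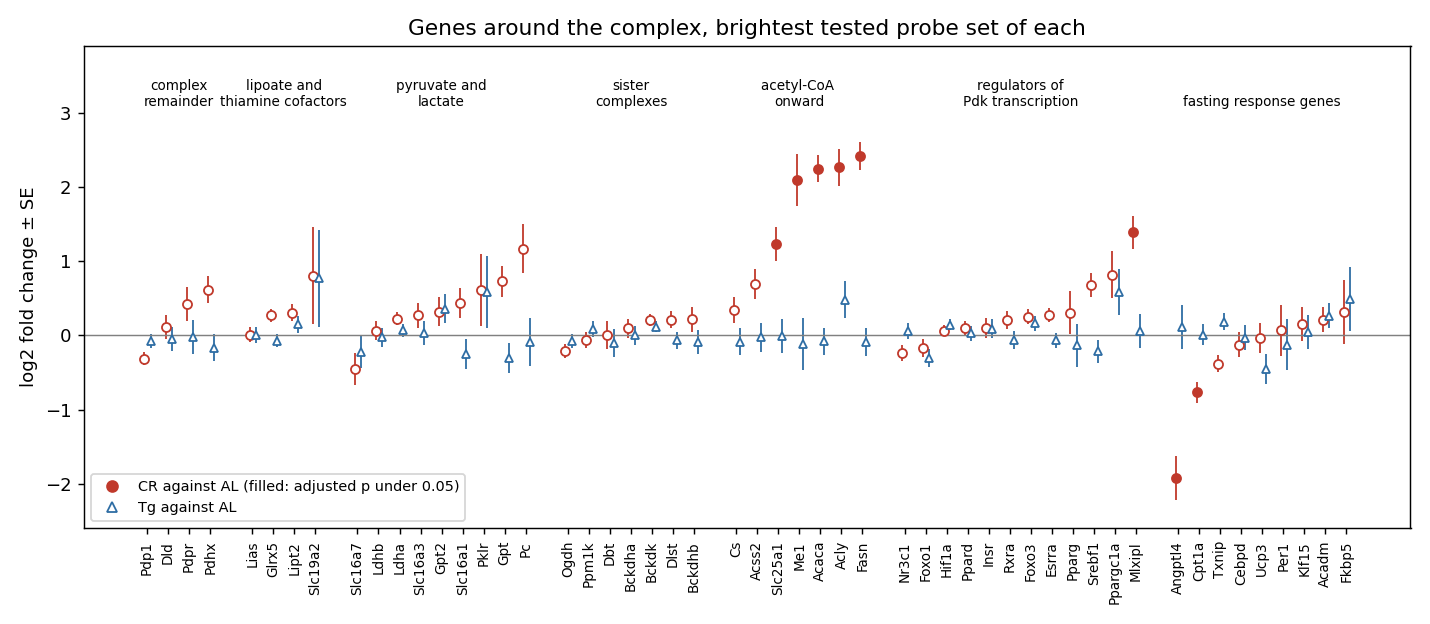
Log2 fold change (± SE) of the brightest tested probe set of each listed gene, CR against AL (circles) and Tg against AL (triangles), grouped by list; filled points passed an adjusted p of 0.05. The acetyl-CoA list holds 5 filled circles above 0, and the fasting list has filled circles for Angptl4 (-1.93) and Cpt1a (-0.77).

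The genes whose profile over the 12 arrays was nearest to that of Pdhb were Nsdhl, a sterol synthesis enzyme, Cd40, a costimulatory receptor, and Parm1, at mean absolute differences of 0.11, 0.12 and 0.12 between centred log2 levels. Pdhb itself deviated from its mean by 0.50 on average. Nearest to Pdk4 1378074_at were Apeg3, the transcription factor Ebf2 and the kinase Pim3, at 0.20, 0.22 and 0.25, where Pdk4 deviated by 0.61.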

How the data were processed

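The series holds 12 Affymetrix rat arrays in 3 groups of 4, with groups read from the titles and source names because the genotype label is that of wild-type rats on every array. The authors deposited a series matrix with a linear intensity per probe set (column medians 222.6 to 239.4) and, per array, a score, which is a z-score of the log10 background-subtracted intensity of each probe. With the deposited array parameters, 100% of the z-scores checked gave whole intensities within 0.01. The brightest probes were left out of that check. Log2 of the matrix correlated with the mean z-score of a probe set at r from 0.987 to 0.995. The summary method and software are not given in the sources used here.

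Values under 1 were set to 1, 57 control probe sets were left out, and the 23281 probe sets whose mean log2 lay above the 25th percentile were tested with limma 3.58.1 in R 4.3.3 (1 mean per group, all 12 arrays, mean-variance trend, two-sided, Benjamini-Hochberg over all tested probe sets). Of 31099 probe sets 20832 had 1 gene symbol, 436 several and 9831 none in the annotation used. The test was also run on simulated data with independent noise for each probe set. That run does not show how signal of neighbouring tissue, shared across probe sets, affects the calls. Named genes were all member probe sets, up to 4 genes per direction and list past the threshold (or up to 2 with the smallest p), and the 3 nearest profiles to Pdhb and Pdk4. Members and lists were chosen with earlier results of these data known. P-values measure only the spread between these arrays.

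The replicate numbers of the titles were counted as pairing CR with Tg by the rule that every correlation exceed 0.1: the deviations of same-numbered arrays correlated at 0.519, 0.32, 0.468 and 0.62. For numbers 2 and 3 another number correlated higher (0.718 and 0.549), and CR2, CR4, Tg2 and Tg4 are also high in duct epithelium markers, so the pairing is a hint from the data. For the other pairs of groups the correlations did not all exceed 0.1, from -0.494 to 0.492.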

Additional observations from a re-analysis of the deposited data

Results flagged for a closer look

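Within the groups of 4 arrays, 45 sets of values were examined for a single distant array, and chance gives about 1 in 20. One stood apart: Pdha1 1371380_at read 12.21 on Tg4, below the 12.33 to 12.34 of Tg1, Tg2 and Tg3. The gap was 0.871 of the group's range, past Dixon's 95% critical value for 4 samples, although it amounts to little on the log2 scale. This array is also one of the 5 high in duct epithelium markers, and the part of that in the value was not tested.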

How the results depend on the processing

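Each result was recomputed under 28 alternatives, 4 of them chosen after seeing the data (without CR3, CR4 and Tg1; without the 4 arrays high in spermatid markers; without the 5 high in duct epithelium markers; median polish with marker covariates). Of 1260 values for the 15 probe sets, 1018 kept direction and side of the threshold, 123 lost and 55 gained a call, and 64 turned direction, none of them past the threshold. None of the 8 calls in CR against AL, or of the 4 in CR against Tg, turned direction. Pdhb kept its call in 26 of 28 alternatives in both comparisons. Mpc1 kept it in 22 (CR against AL) and 26 (CR against Tg), and Pdk4 1378074_at in 8 of 28 for CR against AL.

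For CR against AL, 338 probe sets were called, 8 of them among the 15. The counts were 203 and 4 with no filter, 221 and 4 with no trend, 52 and 0 with only the 8 arrays of the 2 groups (fewer samples), 81 and 5 without CR3, CR4 and Tg1, and 2 and 0 without the spermatid-high arrays. Centring each array on its median gave 4 of the 15. All tested probe sets called were 780 with array weights, 1611 with marker covariates, 1813 with those after median polish and 218 without the duct-high arrays. Leaving out 1 array gave 44 (without AL4) to 283 (without CR4), and 1 to 9 of the 15. Quantile normalization called 182 higher and 143 lower, against 148 and 190.

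For CR against Tg, 291 were called, 4 among the 15. The counts were 179 after median centring, 189 with no trend, 20 and 0 with 8 arrays, 660 and 8 with array weights, 1368 and 11 with marker covariates, 1682 and 10 with those after median polish, 75 without CR3, CR4 and Tg1, 0 and 0 without the spermatid-high arrays (2816 at an unadjusted p under 0.05 with limma) and 153 without the duct-high arrays. Of the 15, 9 were called by median polish, 9 by mean z-score and 8 with the filter at the 50th percentile. Leaving out 1 array gave 41 (without Tg2) to 468 (without CR4), and 2 to 9 of the 15. Quantile normalization called 225 higher and 99 lower, against 171 and 120. For Tg against AL, limma called 2 by median polish, 1 with marker covariates after it, and 0 to 2 without 1 array, 0 of the 15.

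The replicate block, set over all 12 arrays, called 150 for CR against AL, 6 of them among the 15. The numbers do not pair those arrays. It called 116 for CR against Tg, with the AL arrays blocked too.
Differences that turned direction in CR against AL were those of Pdk3. Pdk3 1384315_at was 0.04 by median polish, 0.036 by mean z-score, 0.434 with array weights, 0.065 without CR3, CR4 and Tg1, 0.121 without the spermatid-high arrays and -0.291 to 0.32 without 1 array. Pdk3 1372229_at was -0.272 with marker covariates, -0.263 with those after median polish, -0.211 without the duct-high arrays and -0.057 to 0.622 without 1 array. In CR against Tg, Pdk3 1372229_at and 1384315_at were 0.397 and 0.318 with array weights, 0.109 and 0.081 without the spermatid-high arrays, and -0.542 to 0.136 and -0.504 to 0.106 without 1 array.

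In Tg against AL, the values that turned with marker covariates were Pdhb 0.177, Mpc2 0.07, Pdk1 0.126 and 0.065, Pdk3 -0.236 and -0.275 and Pdk4 1378074_at 0.21. With covariates after median polish they were Mpc1 0.089, Pdhb 0.107, Pdk1 0.043 and 0.066, Pdk3 -0.26 and -0.24 and Pdk4 1378074_at 0.251. Without the spermatid-high arrays they were Pdhb 0.079, Pdk1 0.009 and 0.022, Pdk3 1372229_at -0.107 and Pdk4 1378074_at 0.206, and without the duct-high arrays Pdhb 0.05, Pdk1 0.163 and 0.104, Pdk3 1384315_at -0.099 and Pdk4 1378074_at 0.386. Pdk4 1378074_at was 0.049 by median polish and 0.014 with array weights, and Pdk4 1369150_at was -0.039 by mean z-score and -0.078 without CR3, CR4 and Tg1. Without 1 array the ranges were -0.053 to 0.045 for Pdhb, -0.268 to 0.005 and -0.196 to 0.002 for Pdk1, -0.01 to 0.468 for Pdk3 1384315_at, -0.078 to 0.158 for Pdk4 1369150_at and -0.18 to 0.231 for Pdk4 1378074_at. The cause of these changes was not tested.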
